A study of Mus musculus with 6 samples.

Results

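Gene expression in the hippocampus was compared between Tg2576 mice aged 18 months that had been given captopril and untreated Tg2576 mice aged 12 months, the age at which captopril was started. The comparison used 4 of the 6 chips of the series, 2 of the captopril-treated group (Tg-18mo-ACEI) and 2 of the 12 month-old group (Tg-12mo). A probe set, the group of short probes that reads a stretch of a transcript, was tested when it was no Affymetrix control and its mean signal reached 100 in either group. This left 22768 of 45037 probe sets, and 20714 of those carried 1 gene symbol (12112 genes). Of the 22768, 21030 reached a mean of 100 in both groups, and the others only in Tg-18mo-ACEI by 890 and only in Tg-12mo by 848.

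All mice were male and carried the Tg2576 transgene, human amyloid precursor protein (APP695) with the Swedish double mutation driven by the prion protein promoter, on a C57BL/6J background (C57BL/6 in the labels). No non-transgenic mice were on the 6 chips. Tg-18mo-ACEI mice had drunk water with captopril (20 mg per kg of body weight each day) from 12 to 18 months of age, a period of 6 months. Tg-12mo mice were untreated and are labelled as having a low Aβ plaque load. The remaining group of 2 chips, untreated 18 month-old mice (Tg-18mo), entered the fit as a source of the spread, and its chips are given as values only. Each chip carried hippocampal RNA pooled from 4 mice, so that p-values rest on the spread between chips, which may be technical. The spread between single mice was not measured. Age, plaque load and captopril differ together between Tg-18mo-ACEI and Tg-12mo and cannot be told apart in this comparison.

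Captopril blocks the angiotensin-converting enzyme (ACE), which forms angiotensin II from angiotensin I and also degrades bradykinin. The brain holds its own renin-angiotensin components, and the epithelium of the choroid plexus, which secretes cerebrospinal fluid, is one of the sites where ACE is found. In mice that overproduce Aβ, plaques become surrounded by astrocytes rich in the filament protein GFAP and by microglia that switch on receptors and proteases such as Trem2, Clec7a and Cst7. The hippocampal formation is made up of pyramidal neurons of the CA fields, granule neurons of the dentate gyrus, interneurons and glia, and lies beside the choroid plexus and the ependyma of the ventricles.

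Differences are given as log2(Tg-18mo-ACEI) minus log2(Tg-12mo) of the deposited signals with the standard error (SE). A probe set is called higher or lower in Tg-18mo-ACEI when its limma p, adjusted by Benjamini-Hochberg over the 22768 probe sets, was under 0.05. By this rule 5202 probe sets (22.8%) were higher, 4157 (18.3%) were lower, and 41.1% were called in either direction. The median size was 0.47 among the higher and -0.43 among the lower ones, and 65.7% and 69.1% of them differed by less than 1.5-fold. With the thresholds of the study's methods (at least 2-fold and a p of at most 0.01 before adjustment, for which limma's p was used), 473 probe sets (2.08%, 390 genes) were higher and 289 (1.27%, 217 genes) lower. The chips of the 2 groups did not overlap for 9100 higher (40.0%) and 7245 lower (31.8%) probe sets, so that absence of overlap is common here and singles out no gene. The 2 chips of a group differed by a median of 0.09 (Tg-18mo-ACEI) and 0.11 (Tg-12mo) on the log2 scale.

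The signal distributions of the 2 groups differed at the bright end. The highest signal on a chip was 23607 and 21934 in Tg-18mo-ACEI against 39494 and 40190 in Tg-12mo. All 6 chips had the same mean of 600 once the lowest and highest 2% of values were removed. Among the 647 probe sets with a geometric mean signal of 10000 or more over the 4 chips, 95.2% were lower and 0.464% higher, with a median difference of -0.55. Between 500 and 1000 the median was 0.12. The brightest called higher was Slc1a2, the glial glutamate transporter, with 17170 and 16490 against 14710 on both Tg-12mo chips (0.19, SE 0.05, adjusted p = 0.012, and 0.78 after the normalization described next). Its call was lost when either Tg-12mo chip (0.19) or the first Tg-18mo-ACEI chip (0.16) was left out. The next brightest called higher, Nptx1 (0.15), Mmd (0.17) and Stmn2 (0.18), also lost their calls when single chips were left out (0.10 to 0.19). Of the brightest called lower, Ttr, Nsmf, Rpl13a and Mbp, the differences of -0.91 to -0.86 were -0.14 to -0.11 after the normalization. Next to the deposited scale, quantile normalization was used, which gives every chip the same distribution. After it the medians of all signal classes lay between -0.01 and 0.01, and 21.0% of the brightest probe sets were lower and 21.3% higher. After this normalization 4218 probe sets (18.5%) were higher and 4206 (18.5%) lower. On both scalings 3832 (16.8%) were higher and 3293 (14.5%) lower, whereas 118 probe sets were lower as deposited and higher after normalization and 0 the other way round. With the study's thresholds 398 (1.75%) were higher and 336 (1.48%) lower after normalization. Added controls were also dimmer in Tg-18mo-ACEI: the geometric mean of 24 poly-A control probe sets was 307 and 295 there against 858 and 848 in Tg-12mo, and that of 18 hybridization control probe sets 1840 and 1675 against 4230 and 4243. The 3′/5′ ratio of a control gene is a measure of RNA length. For Gapdh the captopril-treated chips (0.854 and 0.855) lay close to the 12 month-old chips (0.862 and 0.849). For β-actin it was 1.45 and 1.39 in Tg-18mo-ACEI against 1.83 and 1.77 in Tg-12mo, so that only 1 of these ratios differed. The part of these differences in the results below was not tested, and the counts of the gene lists are therefore given on both scalings.

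**Figure D1:**
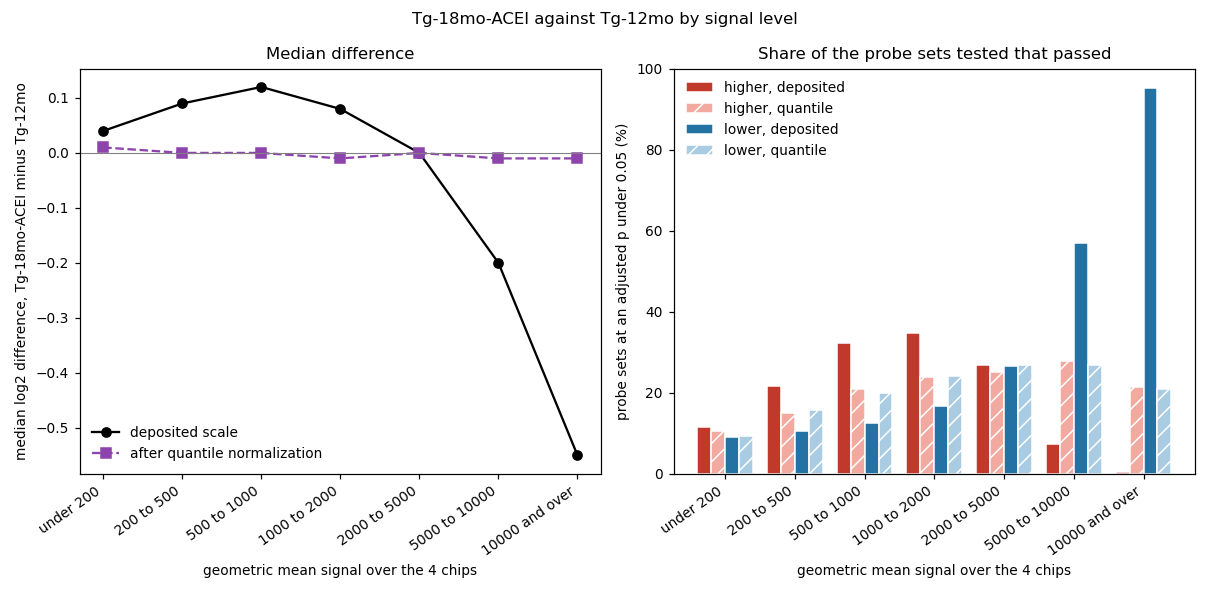
Left, the median log2 difference between Tg-18mo-ACEI and Tg-12mo of the probe sets in 7 classes of geometric mean signal over the 4 chips. Black circles are the deposited scale and purple squares the quantile-normalized scale. Right, the percentage of the probe sets of each class that passed an adjusted p of 0.05, with solid bars for the deposited scale and hatched bars after normalization. At 10000 and over, 95.2% were lower as deposited, against 21.0% after normalization.

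Genes of the choroid plexus epithelium were lower in Tg-18mo-ACEI than in Tg-12mo. Gene lists are read here with 1 probe set per gene, the brightest. Of 477 list genes called on the brightest probe set, 267 had another probe set tested, which was called the opposite way for 45 as deposited and for 17 on both scalings. Over all 12107 genes tested in this way, 20.6% were higher and 21.1% lower with a median difference of 0.01. Of the 20 choroid plexus genes tested, 19 were lower and 0 higher, with a median of -1.89, and after quantile normalization the counts were the same and the median was -1.95. The tested genes of the list other than Ttr summed to 4490 and 4574 in Tg-18mo-ACEI, to 14830 and 14780 in Tg-12mo, and to 16080 and 16020 in Tg-18mo. Of the 20, 6 reached a mean of 100 only in Tg-12mo and could thus enter only where they were high, and of the 14 that reached it in both groups 13 were lower. Tmem72 and Trpv4 were too dim to be tested in both groups. In tissue RNA, fewer cells of a type and less RNA per cell cannot be told apart, and how much choroid plexus entered each pool was not measured.

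Kcnj13, a potassium channel of the apical membrane of this epithelium, had signals of 262 and 227 in Tg-18mo-ACEI against 1341 and 1731 in Tg-12mo (difference -2.64, SE 0.12, adjusted p = 6.0e-06). Its signals on the Tg-18mo chips were 1567 and 1701, so that the captopril-treated chips lay below both untreated groups. The folate receptor Folr1, which carries folate into the cerebrospinal fluid, had signals of 253 and 224 against 1383 and 1239 (-2.46, SE 0.10, adjusted p = 3.0e-06). The chloride channel protein Clic6 had 438 and 439 against 2286 and 2335 (-2.40, SE 0.05, adjusted p = 2.3e-07), and 2615 and 2599 on the Tg-18mo chips. For both genes the 2 chips of a group lay close together and the 2 groups were several-fold apart. Slc4a5, a bicarbonate transporter, was near the lower end of the signal range in Tg-18mo-ACEI (27.1 and 78.5 against 422 and 411). On log2(signal + 32), which damps differences between dim values, it differed by -2.47. Also lower were the homeobox factor Otx2 (-2.43), the tight junction protein Cldn2 (-2.10), the water channel Aqp1 (-1.90), the clotting factor F5 (-1.75) and Kl (-0.96), which encodes klotho, a co-receptor of fibroblast growth factors.

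Ttr and Car12 departed from the other choroid plexus genes. Ttr, the thyroid hormone carrier transthyretin, had signals of 20360 and 18370 in Tg-18mo-ACEI, 36600 and 36160 in Tg-12mo, and 17550 and 19810 in Tg-18mo. It lies at the bright end of the scale, and its difference of -0.91 shrank to -0.12 after quantile normalization (adjusted p = 0.05). The carbonic anhydrase Car12 had signals of 702.5 and 576 against 678 and 659 and did not pass (-0.07, SE 0.10, adjusted p = 0.59).

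Meningeal and fibroblast genes were lower as well. Of 18 tested, 17 were lower and 0 higher on both scalings, with a median of -1.20 (-1.27 after normalization). Of the 16 that reached a mean of 100 in both groups 15 were lower. The tested genes summed to 14470 and 14400 in Tg-18mo-ACEI, 30860 and 29820 in Tg-12mo, and 21350 and 21440 in Tg-18mo. Fmod, the collagen-binding proteoglycan fibromodulin, had signals of 357 and 296 against 1945 and 1937 (-2.58, SE 0.10, adjusted p = 2.4e-06), and 610 and 633 on the Tg-18mo chips. Slc13a4, a sulfate transporter, and Pcolce, which promotes the trimming of procollagen, differed by -2.05 and -1.90. The growth factor Igf2, its binding protein Igfbp2 and the proteoglycan Dcn differed by -1.54, -1.62 and -1.21. Igf2 had 1208 and 1159 in Tg-18mo-ACEI against 3471 and 3427 in Tg-12mo, and 3425 and 3334 in Tg-18mo, so that, unlike for Fmod, both untreated groups were near each other. The proteoglycan Lum did not pass (-0.11, adjusted p = 0.65), and Col1a1 was too dim to be tested.

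Of 13 genes of ependymal cells and motile cilia tested, 9 were lower and 0 higher on both scalings, with a median of -0.57 (-0.64 after normalization). Of the 11 that reached a mean of 100 in both groups 8 were lower. Dnah6 reached it only in Tg-12mo and was lower, and Foxj1 reached it only in Tg-18mo-ACEI. The summed signal of the 13 was 2943 and 2746 in Tg-18mo-ACEI, 4615 and 4570 in Tg-12mo, and 5055 and 4781 in Tg-18mo. Dynlrb2, a light chain of ciliary dynein, had signals of 335 and 292 against 657 and 677 (-1.09, SE 0.10, adjusted p = 9.3e-05). The cilia gene Cfap126 differed by -1.16. Foxj1, the master transcription factor of motile cilia, did not pass (96.3 and 108 against 57.1 and 96.6, difference 0.46, adjusted p = 0.24).

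**Figure D2:**
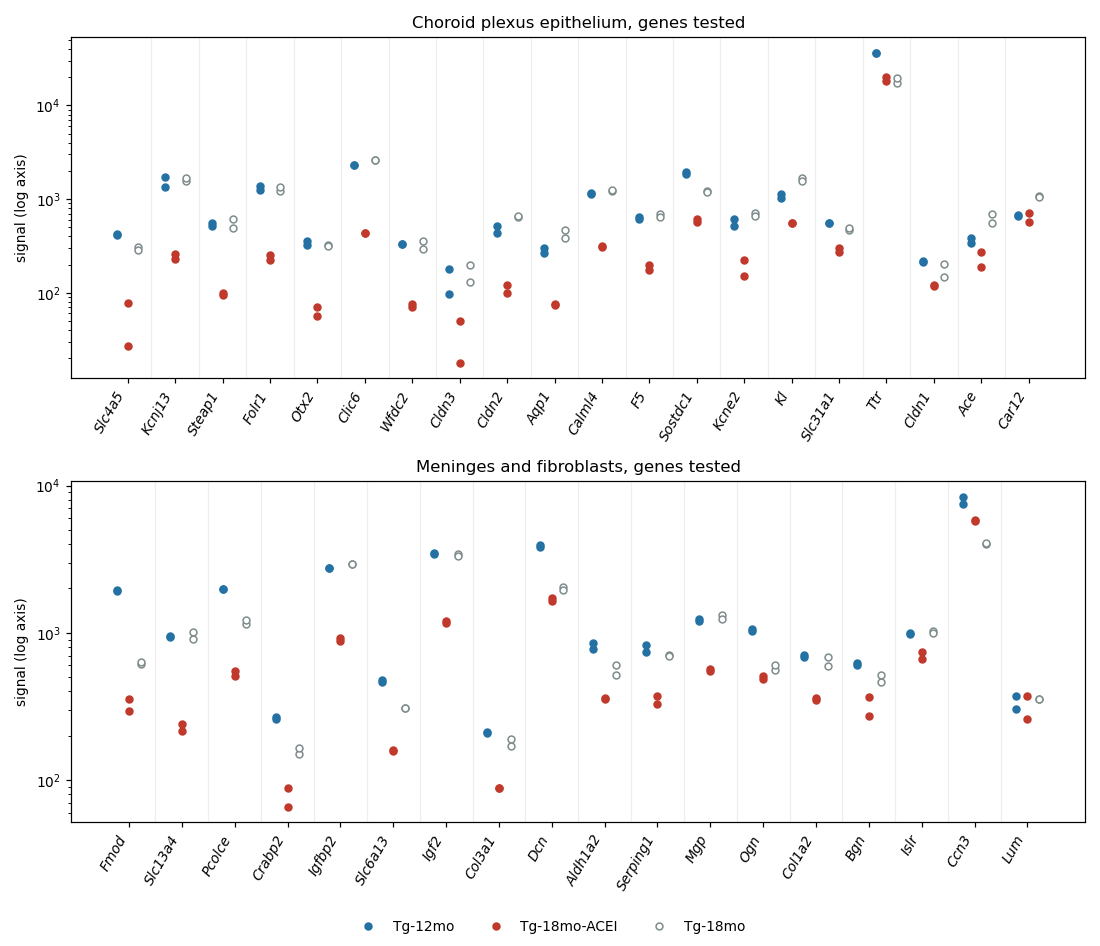
Signal on each chip (log axis) of the 20 choroid plexus genes tested (top) and the 18 meningeal and fibroblast genes tested (bottom), in the order of their difference. Blue points are the 2 Tg-12mo chips, red points the 2 Tg-18mo-ACEI chips and open circles the 2 Tg-18mo chips. The red points lie below the blue ones for all genes but Car12 and Lum.

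The genes with the lowest differences overlapped with these lists. Of the 12 genes with the lowest differences among those with a mean signal of 100 or more in both groups and called on both scalings, Kcnj13, Folr1, Clic6 and Cldn2 are on the choroid plexus list and Fmod, Slc13a4 and Pcolce on the meningeal list. The lowest was Cox8b, a cytochrome c oxidase subunit of muscle and brown fat, with signals of 112 and 105 in Tg-18mo-ACEI against 1076 and 1097 in Tg-12mo (-3.33, SE 0.11, adjusted p = 1.9e-06). On the Tg-18mo chips it had 541 and 458.5, between the other groups. Ecrg4, which encodes a secreted peptide found in choroid plexus and meninges, had signals of 925 and 942.5 against 5933 and 5888 (-2.66, SE 0.05, adjusted p = 2.0e-07), and all 3 of its probe sets tested were lower. The epithelial keratin Krt18 (-2.25), the lipopolysaccharide-binding protein Lbp (-1.98) and Rprd2 (-1.94), which binds RNA polymerase II, completed the 12. Of the 14 other probe sets tested of these 12 genes, 10 were lower, 1 was higher and 3 did not pass. Among probe sets whose mean was under 100 in Tg-18mo-ACEI, Trpm3, Depp1, Prr32 and the choroid plexus genes Slc4a5 and Steap1 were lowest on log2(signal + 32), from -2.47 to -2.19, followed by a second probe set of Lbp (-2.09).

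The genes with the highest differences did not belong to the lists of choroid plexus, meninges or ependyma. The highest was H2-D1, a classical MHC class I heavy chain, with signals of 1584 and 1884 in Tg-18mo-ACEI against 261.5 and 159.5 in Tg-12mo (3.08, SE 0.19, adjusted p = 2.1e-05). Tg-18mo had 2073 and 2018, and the 2 other probe sets of H2-D1 tested differed by 1.96 and 0.04. Near-identical class I genes can share the probes of such a set, so that the change cannot be assigned to H2-D1 alone. Spon1, a secreted matrix protein that binds APP, had signals of 719 and 811 against 128 and 166 (2.39, SE 0.14, adjusted p = 1.7e-05), and 519.5 and 519 in Tg-18mo. Adamts4, a proteoglycan-cleaving protease of oligodendrocytes, had 454 and 477 against 94.7 and 109 (2.20, SE 0.14). Another probe set of Spon1 differed by 1.12. The brightest one of Spon1 differed by 0.16 (adjusted p = 0.038) and did not pass after normalization (0.12, adjusted p = 0.11). On the probe sets whose signals are given, these 3 genes were high in both 18 month-old groups. By contrast, Plxnc1, a semaphorin receptor, had signals of 485 and 536 in Tg-18mo-ACEI, 137 and 82.2 in Tg-12mo and only 54.4 and 62.8 in Tg-18mo (2.27, SE 0.25, adjusted p = 2.3e-04). Ntrk3, the receptor of neurotrophin 3, had 802 and 860 against 193 and 203, with 208 and 222 in Tg-18mo (2.07, SE 0.11, adjusted p = 1.2e-05). Both of these probe sets were high in the captopril-treated group alone. The brightest probe sets of Plxnc1 (0.04, adjusted p = 0.8) and Ntrk3 (0.01, adjusted p = 0.94) did not pass, nor did another probe set of Plxnc1 (0.38, adjusted p = 0.057).

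The other 7 of the 12 highest were the GABA transporter Slc6a11 (2.10), Nos1ap, an adaptor of neuronal nitric oxide synthase (2.24), the zinc finger gene Zfp871 (2.26), the RNA-binding genes Khdrbs1 (2.37), Hnrnpu (2.04) and Nudt21 (2.21), and Malat1, a nuclear noncoding RNA (2.18). Of the 31 other probe sets tested of these 12 genes, 12 were higher, 1 was lower and 18 did not pass. Malat1 had 2192 and 2299 against 527 and 466.5 on the probe set with its largest difference, while its brightest probe set differed by 0.26 (2955 and 2885 against 2348 and 2543). Hnrnpu had 3770 and 3676 against 908 and 897 (SE 0.06, adjusted p = 8.1e-07), and of its 4 other probe sets tested 1 was higher (0.28) and 3 did not pass (0.12, -0.13 and -0.25).

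A few probe sets had almost no signal in Tg-12mo. One probe set of Prune2 had signals of 1993 and 2035 in Tg-18mo-ACEI, 41.3 and 31.7 in Tg-12mo and 1090 and 1034 in Tg-18mo, a difference of 4.90 on log2(signal + 32). The other Prune2 probe set tested differed by -0.35, in the opposite direction. One probe set of Rpl7l1 had 193 and 241 against 2.37 and 3.08, while its other probe sets tested differed by -0.07 and -0.02. Smco3 had 367 and 400.3 against 33.2 and 36.1, and Mndal, an interferon-inducible gene of the Ifi200 cluster, 160 and 208 against 4.29 and 0.808. For Prune2 and Rpl7l1 the pattern belongs to the stretch that the probe set reads and not to the whole gene. Gabra6 and Pcp2, markers of cerebellar granule and Purkinje neurons, were also among these, with 158 and 192 against 1.67 and 3.31 for Gabra6 and 275 and 287 against 45.6 and 11.2 for Pcp2. In Tg-18mo they were at 21.6 and 7.93, and at 39.0 and 38.3. Of 9 cerebellar genes tested, 4 reached a mean of 100 only in Tg-18mo-ACEI, and Gabra6, Pcp2 and Cbln3 (1.77) are 3 of these, so that the filter admitted them only as higher. Cbln3 lost its call without Tg-18mo-ACEI replicate 2 (1.68). Of the 5 that reached 100 in both groups, Car8 was higher (1.21) and Zic1 and Calb2 were lower (-0.62 and -0.36). The 9 genes summed to 7533 and 8172 in Tg-18mo-ACEI against 8844 and 8658 in Tg-12mo. Without Zic1, the brightest, the other 8 summed to 5069 and 5590 against 4939 and 4834. Of the same list, En2, Barhl2, Fat2 and Ppp1r17 were too dim to be tested, and a part of other brain regions in these values was not tested.

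Some astrocyte and microglial genes that accompany plaques, Gfap, Serpina3n, Trem2, Cst7 and Clec7a, were higher in Tg-18mo-ACEI in lists that as a whole did not move one way. Gfap had signals of 4778 and 4668 against 2598 and 2678 in Tg-12mo (0.84, SE 0.04, adjusted p = 1.2e-05), and 5577 and 5523 in Tg-18mo. Serpina3n, a protease inhibitor of reactive astrocytes, had 1119 and 1070 against 645 and 689 (0.71, SE 0.07, adjusted p = 9.4e-05), and 1408 and 1447 in Tg-18mo. For both genes the Tg-18mo-ACEI chips lay between the 2 untreated groups. Of 18 astrocyte genes tested 5 were higher and 7 lower (median -0.07), and 6 higher and 4 lower after normalization (0.05). The gap junction gene Gjb6 (-0.59) and the filament gene Vim (-0.48) were lower on both scalings, and the transporter Slc4a4 (0.40) and the folate enzyme Aldh1l1 (0.42) higher on both.

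Of 19 genes of plaque-associated microglia tested, 4 were higher, 5 lower and 10 did not pass, with a median of -0.03, against 20.6% higher and 21.1% lower over all genes. After normalization 4 were higher and 2 lower. Cst7 and Clec7a reached a mean of 100 only in Tg-18mo-ACEI, so that the filter let them in through the group where they are high. Cst7, a cysteine protease inhibitor, had signals of 181 and 204 against 72.1 and 51.7 (1.65, SE 0.22, adjusted p = 6.0e-04), and 177 and 191 in Tg-18mo. Clec7a, a receptor for fungal glucans, had 172 and 166.5 against 53.5 and 15.9 (1.65 on log2(signal + 32)), and 153 and 164 in Tg-18mo. Cst7 and Clec7a were thus at similar signals in both 18 month-old groups and 12 month-old signals were below. The lipid receptor Trem2, with 297 and 302 against 178 and 199.5 (0.67, SE 0.12, adjusted p = 0.0030), was at 413 and 445 in Tg-18mo, and B2m, the light chain of MHC class I, differed by 0.39. In the opposite direction, Lgals3, which encodes galectin-3, had 154 and 162 against 402 and 395 (-1.33, SE 0.13, adjusted p = 1.2e-04). The signals of Tyrobp, Cd68, Cd9, Ctsd, Ctss and Lyz2 differed by -0.06 to 0.01 and did not pass. Itgax was too dim to be tested. Apoe and Fth1 were lower as deposited (-0.69 and -0.82) and near 0 after normalization (-0.02 and -0.05).

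Of 15 homeostatic microglia genes 6 were higher and 2 lower, with a median of 0.19, and 4 and 2 after normalization (0.09). The purine receptor P2ry13 (0.61) and Olfml3 (0.63) were among the higher ones and the phagocytic receptor Mertk (-0.61) and Ltc4s (-0.86), an enzyme of leukotriene synthesis, were the lower ones. Of 16 genes of complement and antigen presentation 5 were higher and 3 lower on both scalings. C1qb and C1qc, chains of the first complement component, differed by 0.37 and 0.44, their partner C1qa by -0.21, and H2-K1, another class I heavy chain, by 0.70. Serping1, the inhibitor of that component, which is also on the meningeal list, differed by -1.16. Of 12 interferon-stimulated genes Oas1a was higher (1.03) and Ifi27 (-0.19) and Ifitm3 (-0.20) were lower, and after normalization Oas1a did not pass. Both lower ones lost their call without Tg-12mo replicate 2 (-0.12 and -0.13) and without either Tg-18mo-ACEI replicate (-0.18 to -0.22).

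**Figure D3:**
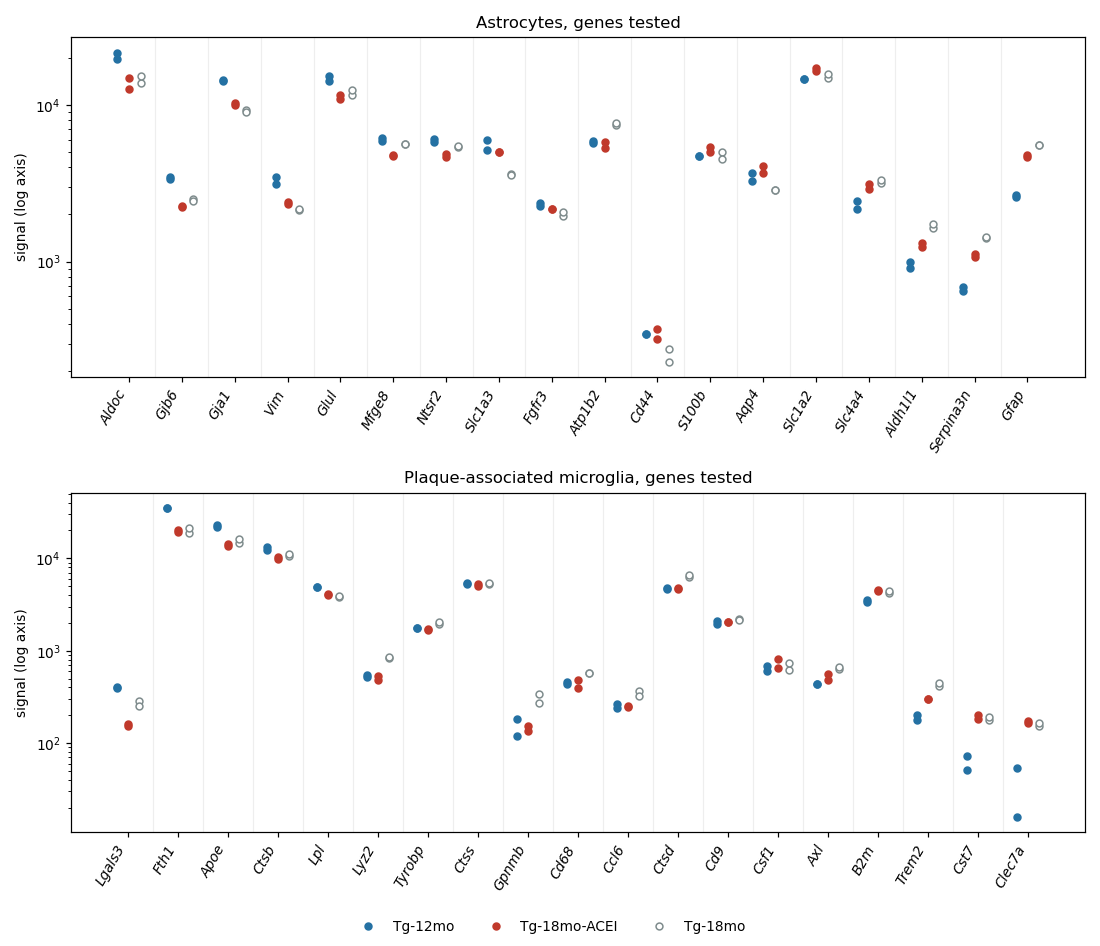
Signal on each chip (log axis) of the 18 astrocyte genes tested (top) and the 19 genes of plaque-associated microglia tested (bottom), in the order of their difference. Blue points are Tg-12mo, red points Tg-18mo-ACEI and open circles Tg-18mo. Gfap, Serpina3n, Trem2, Cst7 and Clec7a stand at the right end, higher in both 18 month-old groups than in Tg-12mo.

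The study lists 13 probe sets of 11 genes of neuronal membranes and processes as above the 12 month-old level under captopril. They were chosen on these same chips, so their direction is no independent evidence and is given as a description. In other cohorts of mice the study also measured protein. It reported Scn1a, Kcnc1 and Epha4 above the 12 month-old level under captopril, and an increased Rab6b level. Protein was not measured on these chips. All 13 had positive differences, from 0.53 to 1.78 with a median of 1.07, and 12 passed on either scaling. Rab6b, a GTPase of Golgi transport in neurons, had signals of 2675 and 2665 in Tg-18mo-ACEI, 759.5 and 793 in Tg-12mo and 382 and 361 in Tg-18mo (1.78, SE 0.07). Epha4, an ephrin receptor of axon guidance and synapses, had 897 and 784.5 against 314 and 296 on the dimmer of its 2 listed probe sets (1.46, SE 0.12), with 98.7 and 96.7 in Tg-18mo. Scn1a, the pore-forming subunit of a voltage-gated sodium channel, had 1266 and 1354 against 513 and 575 on the brighter of its 2 listed probe sets (1.27, SE 0.09). Kcnc1, a fast potassium channel, had 2054 and 2144 against 990.0 and 1009 (1.07, SE 0.08). On the Tg-18mo chips all of these were dimmer than on the Tg-12mo chips. Clasp2, a microtubule plus-end protein, was the probe set that did not pass (233 and 259 against 163 and 179, 0.53, SE 0.19, adjusted p = 0.054).

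The other probe sets of the same 11 genes, which the study did not list, were less uniform. Of 27 tested, 12 were higher, 6 lower and 9 did not pass, with a median of -0.01 (12 higher, 5 lower and 0.10 after normalization). Epha4, Atp8a1, a phospholipid flippase, and Rph3a, an effector of the vesicle GTPase Rab3, were higher on every probe set tested, Epha4 on 5 (0.41 to 1.46), Atp8a1 on 5 (0.30 to 1.18) and Rph3a on 2 (0.15 and 0.74). The brightest probe set of Epha4 (0.41) lost its call without Tg-12mo replicate 2 (0.30) and without either Tg-18mo-ACEI replicate (0.48 and 0.35). Rab6b was lower on its brightest probe set, with 12830 and 12230 against 16930 and 17080 (-0.44), a difference that was 0.10 after normalization (adjusted p = 0.11). Its remaining probe sets tested were lower (-0.16) and higher (0.46). Scn1a on its brightest probe set had 1935 and 1882 against 1890 and 1946 and did not differ beyond the chip spread (-0.01, SE 0.05, adjusted p = 0.92). The 2 other probe sets of Kcnc1 tested differed by -0.10 and -0.11 and did not pass, the latter being lower after normalization (-0.21, adjusted p = 0.036). Kif5b, a heavy chain of kinesin-1, was higher on 3 probe sets (0.55, 0.59 and 0.62), lower on 1 (-0.47) and did not pass on 1 (-0.11). Lin7a and Clasp2 were lower on their brightest probe sets on both scalings. Lin7a differed by -0.32 (-0.35 after normalization) and Clasp2 by -0.24 (-0.19). No probe set of Clasp2 tested was called higher. The remaining 8 of the 11 genes had at least 1 probe set tested that was not higher. Except for Clasp2, their result thus depended on which stretch of the transcript was read.

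**Figure D4:**
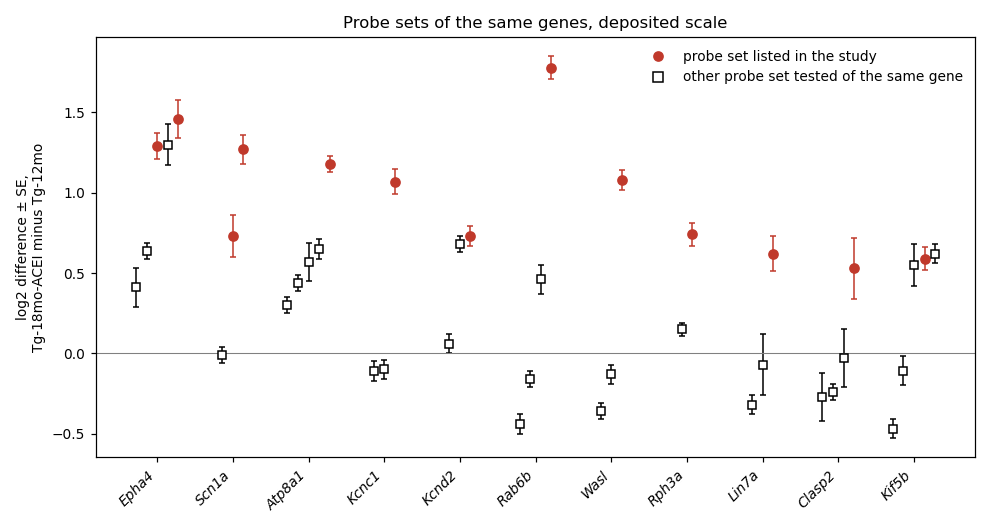
Log2 difference between Tg-18mo-ACEI and Tg-12mo (± SE, deposited scale, 2 chips per group) of the 13 probe sets listed in the study (red circles) and the 27 other probe sets tested of the same 11 genes (open squares). The red circles lie between 0.53 and 1.78 and the squares spread around 0, and those of Epha4, Atp8a1 and Rph3a are all above it.

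Probe sets of 1 gene also disagreed elsewhere. Of 5369 genes with at least 2 probe sets tested, 3702 had a probe set called, 393 were higher on every probe set, 278 lower on every probe set, and 460 were called in both directions. On both scalings 249 genes were called in both directions. Among the 2463 genes with a higher probe set, the brightest probe set was higher in 1275 and lower in 326. Among the 1699 genes with a lower probe set, it was lower in 1332 and higher in 86. Sdc4, the proteoglycan syndecan-4, had 1923 and 2060 against 4626 and 4814 on 1 probe set (-1.25, SE 0.06) and 1001 and 1103 against 405 and 553 on another (1.15, SE 0.14). Khdrbs1, Rprd2, Tmod2 and Caln1 were the other genes with the widest gaps between opposite calls, from 2.31 to 3.02.

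The lists of dentate granule and CA pyramidal neurons had more genes higher than lower, and the interneuron list had more lower. Of 15 interneuron genes tested, 3 were higher and 5 lower (median -0.06), and 1 and 2 after normalization (-0.07). Of 12 striatal genes 3 were higher and 1 lower (median -0.02), and of 12 thalamic and habenular genes 3 and 3 (0.02). Over all genes 20.6% were higher and 21.1% lower as deposited, and 16.5% and 21.4% after normalization. Of probe sets with a geometric mean signal of 500 to 1000, 32.2% were higher and 12.6% lower as deposited. At 1000 to 2000 these shares were 34.8% and 16.7%. After normalization they were 20.8% and 20.0% in the first class, and 23.8% and 24.0% in the second. The part of the signal level in the counts of these lists was not tested. Of 17 dentate granule genes tested, 9 were higher and 1 lower, with a median of 0.37 (9 and 0 with 0.27 after normalization). C1ql2, a secreted synaptic organizer of mossy fibres, had signals of 1763 and 1713 against 715.5 and 745 (1.25, SE 0.06, adjusted p = 5.4e-06), and 1570 and 1580 in Tg-18mo. Prox1, the transcription factor of granule neuron identity, had 448 and 442.5 against 167.5 and 220 (1.21, SE 0.17), and 162 and 139 in Tg-18mo. The phosphodiesterase Pde1a had 3028 and 2858 against 1599 and 1496 (0.93, SE 0.06), and 898 and 870 in Tg-18mo. C1ql2 was thus high in both 18 month-old groups, whereas Prox1 and Pde1a were brightest in Tg-18mo-ACEI. Among 14 genes of CA pyramidal neurons 5 were higher and 1 lower (median 0.11), and 5 and 0 after normalization (0.14). Spink8 (0.50), the orphan receptor Gpr161 (0.44) and the transcription factor Neurod2 (0.35) had the largest differences among those called on both scalings.

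Several families of channels, receptors and adhesion molecules had more members higher than lower. As deposited, 20.6% of all genes were higher, and 32.2% to 34.8% of probe sets with geometric mean signals of 500 to 2000. The part of the signal level in these counts was not tested. Of 24 glutamate receptor and scaffold genes, 11 were higher and 0 lower on either scaling (9 higher on both), with medians of 0.14 and 0.17, and sizes up to 0.59. The scaffold genes Dlgap2 (0.59) and Dlg4 (0.44), which encodes PSD-95, and the metabotropic receptor Grm2 (0.53) were the highest of these. Of 22 calcium channel and pump genes 10 were higher and 2 lower, and 9 and 1 after normalization (6 and 1 on both), among them the sodium-calcium exchanger Slc8a1, with 3547 and 3407 against 2332 and 2441 (0.54, SE 0.06, adjusted p = 1.5e-04). Of 17 genes of neurexins, neuroligins and adhesion 8 were higher and 1 lower, and 8 and 0 after normalization. The neuroligin Nlgn1, a postsynaptic adhesion protein, had 1975 and 1737 against 932 and 716 (1.18, SE 0.12, adjusted p = 1.5e-04), and 521 and 547 in Tg-18mo. The cell adhesion gene Cadm3 differed by 1.02 on its brightest probe set and by -0.28 and 0.08 on its other ones, the former called lower, and Nfasc, which organizes the axon initial segment, by 0.81. Among 15 Eph receptors and ephrins 7 were higher and 1 lower, and 5 and 1 after normalization, led by Epha6, with 681 and 745.5 against 398 and 367.5 (0.90, SE 0.09), and Epha3 (0.62). Among 15 potassium channel genes 6 were higher and 1 lower on either scaling (5 and 1 on both), with Kcnh1 higher (0.61) and Kcna4 lower (-0.46). Among 7 sodium channel genes Scn4b (0.48) and Scn8a (0.21) were higher and Scn2b lower (-0.37) on both scalings, whereas Scn3a was higher as deposited (0.34) and did not pass after normalization (0.23, adjusted p = 0.13). Of 9 GABA-A receptor subunits Gabra3 was higher on both scalings (0.55), and Gabra5 was lower as deposited (-0.15) and did not pass after normalization (-0.06, adjusted p = 0.33). The microtubule-associated genes Map1b and Map1a, from a list of tau and its kinases with 8 of 20 higher and 5 lower (7 and 3 after normalization), differed by 1.05 and 0.82.

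The direction of the synaptic vesicle and transport lists depended on the scaling. Of 25 synaptic vesicle genes 5 were higher and 11 lower as deposited (median -0.13), against 15 higher and 2 lower after normalization (0.17). Snap25, a bright SNARE protein gene, had 19820 and 20140 against 30340 and 29500, a difference of -0.58 as deposited and of 0.20 after normalization. Unc13a and Rims2 were the genes of this list with the largest differences and moved the same way on both scalings, Unc13a, a priming factor of vesicles by 0.90 and 0.79, and Rims2, a scaffold of release sites, by -0.68 and -0.72 (another Rims2 probe set was higher by 0.22 as deposited). Of 24 kinesin, dynein and dynactin genes 8 were higher and 10 lower as deposited, and 11 and 3 after normalization.

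Genes of protein synthesis and energy metabolism were mostly lower as deposited. Of 21 cytoplasmic ribosomal protein genes, 19 were lower and 0 higher (median -0.68), and 9 were lower and 0 higher after normalization (-0.10). Of 38 oxidative phosphorylation genes, 34 were lower and 1 higher (-0.49), and 14 and 3 after normalization (-0.09). Rps2, a protein of the small subunit, had 14350 and 13520 against 25470 and 26810, and its difference of -0.91 became -0.20. Cox6a1, a cytochrome c oxidase subunit, moved from -0.89 to -0.17. Most members of both lists lie in the signal range where nearly all probe sets were lower, so that the deposited differences cannot be told apart from that of the chips. Of 14 glycolytic genes 2 were higher and 8 lower, turning to 5 and 0. Of 28 chaperone genes 6 were higher and 12 lower, turning to 8 and 1. Of 27 proteasome genes 16 were lower and 3 higher, and 9 and 5 after normalization. Of the chaperones Hspa4 was higher (1.08, with another of its probe sets lower by -0.44) and Hspb8 lower (-0.78). Psmb3, a subunit of the proteasome core, had 4798 and 4591 against 8208 and 8266 and stayed at -0.66 after normalization (-0.81 as deposited).

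**Figure D5:**
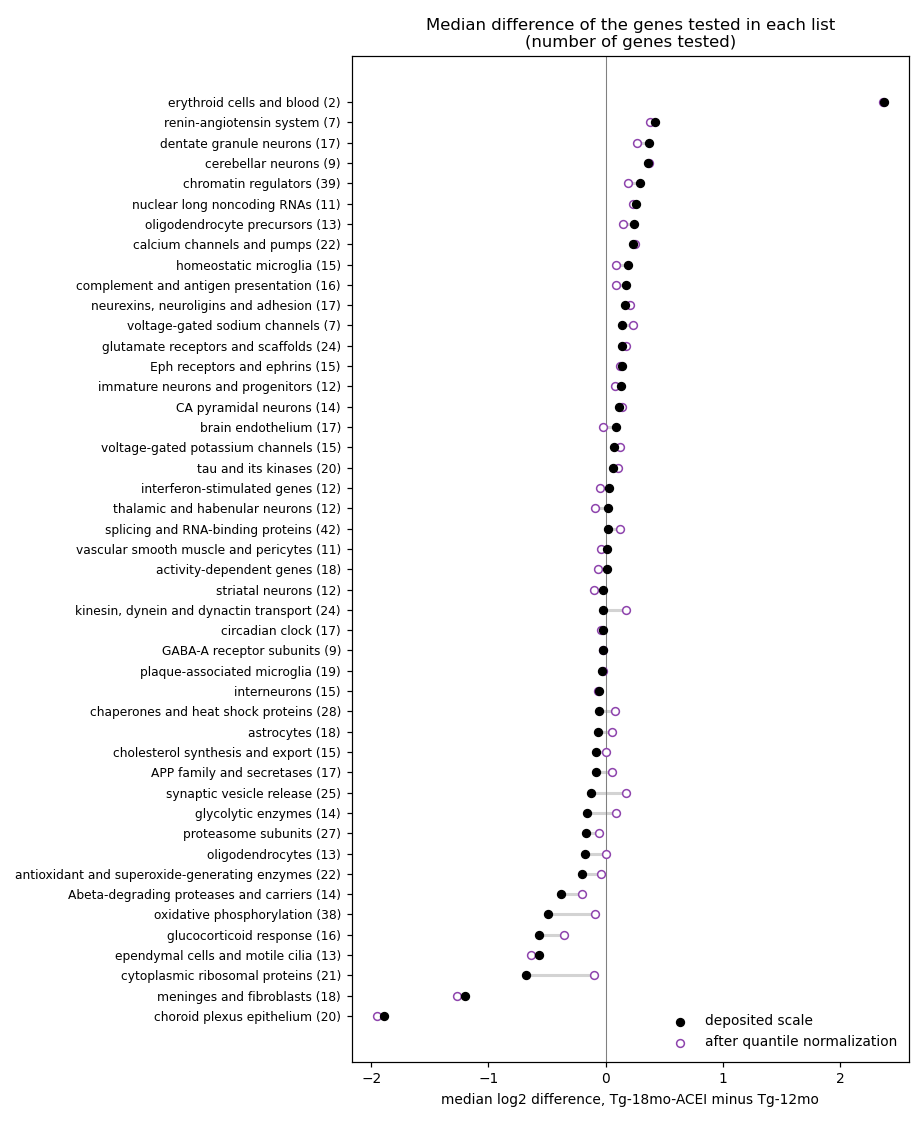
Median log2 difference between Tg-18mo-ACEI and Tg-12mo over the genes tested in each of 46 gene lists (number of genes in brackets, 1 probe set per gene), in order. Filled points are the deposited scale and open circles the quantile-normalized scale, joined by a grey line. Choroid plexus (-1.89) and meninges (-1.20) lie lowest on both, the ribosomal list moves from -0.68 to -0.10, and the highest point, blood cells, rests on 2 genes.

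Of the renin-angiotensin genes, 7 of 13 measured were bright enough to be tested, with 1 higher and 3 lower (1 and 2 on both scalings). Ace itself had signals of 188 and 275 in Tg-18mo-ACEI, 337 and 388 in Tg-12mo and 695 and 551.5 in Tg-18mo on the brighter of its 2 probe sets (-0.67, SE 0.19, adjusted p = 0.023). On the dimmer one it had 172.5 and 152 against 214 and 261 (-0.55, SE 0.15, adjusted p = 0.021). Ace is also expressed by the choroid plexus and stands on that list, and its part in the lower choroid plexus signals was not tested. The brighter one lost its call when Tg-12mo replicate 2 (-0.57) or Tg-18mo-ACEI replicate 1 (-0.40) was left out, and the dimmer one when Tg-12mo replicate 2 (-0.40) or Tg-18mo-ACEI replicate 2 (-0.45) was. Agt, the precursor angiotensinogen, made mainly by astrocytes in brain, had 670 and 558 against 1230 and 1184 (-0.98, SE 0.19, adjusted p = 0.0041), and 730.5 and 454 in Tg-18mo. Mas1, the receptor of angiotensin-(1-7), had 301 and 304 against 168 and 174 (0.82, SE 0.16, adjusted p = 0.0038). The angiotensin receptor genes Agtr1a, Agtr1b and Agtr2 and the bradykinin receptor genes Bdkrb1 and Bdkrb2 were too dim to be tested in both groups. Tagln, a smooth muscle protein that the study examined beside Ace and Kl, had 181 and 177.5 against 225 and 140.3 and did not pass (0.01, SE 0.21, adjusted p = 0.97).

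Of 17 genes of the APP family, its adaptors and the secretases, 3 were higher and 7 lower as deposited, and 3 and 4 after normalization. App had 15190 and 14180 against 22270 and 22860, a difference of -0.62 that was 0.05 after normalization (adjusted p = 0.25). The γ-secretase subunit Aph1b (-0.70) and the β-secretases Bace1 (-0.25) and Bace2 (-0.96) were lower on both scalings on their brightest probe sets, while the α-secretases Adam10 and Adam17 did not pass. The 3 other probe sets of Bace1 differed by 0.89, which was called higher on both scalings, 0.15 and 0.08. Bace2 reached a mean of 100 only in Tg-12mo, so that the filter let it in through the group where it is high. Bace2, with 60.7 and 52.2 against 106 and 113, lost its call when Tg-12mo replicate 2 (-0.92), Tg-18mo-ACEI replicate 1 (-1.07) or Tg-18mo-ACEI replicate 2 (-0.85) was left out. Of 14 genes of Aβ-degrading proteases and carriers, 9 were lower and 0 higher (median -0.38), and 7 and 0 after normalization (-0.20). On both scalings 6 were lower. Over all genes 21.1% were lower as deposited and 21.4% after normalization. Ttr and Ace of this list also stand on the choroid plexus list. The protease inhibitor A2m differed by -0.60, the metalloproteinases Mmp2 and Mmp14 by -0.59 and -0.42, and Mme, which encodes neprilysin, by 0.45 without passing (adjusted p = 0.11).

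In a list of genes induced by glucocorticoids and of their receptors, more were lower than higher in Tg-18mo-ACEI. Over all genes 20.6% were higher and 21.1% lower as deposited. Of 16 tested 9 were lower and 3 higher on both scalings, with a median of -0.57 (-0.36 after normalization). Plin4 and Hif3a reached a mean of 100 only in Tg-12mo and could enter only where they were high. Of the 14 that reached it in both groups, 8 were lower and 3 higher as deposited. Sgk1, a kinase induced by corticosteroids, had signals of 3285 and 3715 against 11180 and 9834 (-1.59, SE 0.10, adjusted p = 1.8e-05), and 5112 and 4316 in Tg-18mo. Plin4, a lipid droplet protein, had 87.9 and 74.1 against 226 and 246 (-1.54), and 291 and 323.5 in Tg-18mo. Sult1a1, a sulfotransferase, had 260.1 and 260.5 against 700.0 and 792 (-1.52). Cdkn1a, Per1, Mt2 and Klf9 differed by -1.10, -0.87, -0.68 and -0.65. The receptors Nr3c1 and Nr3c2 were higher (0.30 and 0.38), as was Zbtb16 (0.31), while Fkbp5 did not pass (0.04, adjusted p = 0.63). Of 18 activity-dependent genes 2 were higher and 3 lower, and 3 and 4 after normalization. Fos had 667 and 702 against 1119 and 1149 (-0.73, SE 0.07), Dusp1 differed by -0.77 and Nr4a1 by -0.63, and Bdnf (0.52) and Fosb (0.75) were higher. Fosb reached a mean of 100 only in Tg-18mo-ACEI and lost its call without Tg-18mo-ACEI replicate 2 (0.63).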

How the data were processed

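Hippocampal RNA of male Tg2576 mice was measured on 6 Affymetrix MG430 2.0 chips, 2 per group. The authors deposited linear signal intensities made with GCOS and scaled to a target value of 600. Detection calls and array images are not used here, and gene symbols follow the platform annotation. A mean per group was fitted to the log2 signals of the 6 chips with lmFit, contrasts.fit and eBayes (intensity trend, 3 residual and 5.41 prior degrees of freedom) of limma 3.58.1 under R 4.3.3, and p-values were adjusted over 22768 probe sets. Quantile normalization was run over the 6 chips. The 46 gene lists were read with the brightest probe set per gene and no set test. The members and lists were chosen with earlier results of these data known. Genes were named from the 12 highest and 12 lowest differences called on both scalings with a mean of 100 or more in both groups, the 6 at each end with a mean under 100 in 1 group (by log2(signal + 32)), the 4 brightest at each end, the study's probe sets, the 5 widest gaps between opposite probe sets, and the 3 largest and the brightest member of each list, of which not all are printed. Other list members are named after their values were seen. Alternatives covered the scaling, the filter, the added value, the samples in the fit, a replicate block, the t-test of the methods and each chip left out. The number of chips limits the precision. Tables were read with pandas 2.3.3 and drawn with matplotlib 3.10.9 in Python 3.11.15.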

Additional observations from a re-analysis of the deposited data

How the results depend on the processing

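The counts of called probe sets depended most on the estimate of the spread. The methods' t-test after Benjamini-Hochberg adjustment called 121 higher and 138 lower on linear and 9 and 13 on log2 signals, and at the study's thresholds 218 and 130, and 195 and 132. At these thresholds a mean signal of 200 or more gave 274 and 133, and a mean of 100 or more in both groups 301 and 144. With each chip left out, 3506 to 4848 probe sets were higher and 3107 to 3909 lower, and 407 to 621 and 278 to 320 at the study's thresholds. The remaining alternatives gave 4218 to 5326 higher and 3590 to 4209 lower. Samples with the same replicate number did not deviate together (correlations of -0.028, 0.0344 and -0.0572). With 2 chips per group this does not settle whether samples were handled in pairs. A replicate block called 4974 higher and 3918 lower. Of 221 named probe sets, 16 turned direction after quantile normalization, all bright: Camk2a (0.11), Gad1 (0.02), Aldoc (0.04), Csf1r (0.20), Bsg (0.06), Atp6ap2 (0.13), App (0.05), Map2 (0.06), Scn3b (0.20), Kcnab2 (0.12), Atp2a2 (0.22), Snap25 (0.20), Kif5a (0.11), Rps29 (0.00), Uqcrb (0.09) and Aldoa (0.23). None turned under the other alternatives run on them, and 6 to 16 lost their call when a chip of the 2 groups was left out. The median of 13 of the 46 lists changed sign after quantile normalization, of 2 with each chip divided by its median and of 0 with 32 added. The mean over all probe sets of a gene in place of the brightest changed the sign of 9.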

Other observations

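Myelin genes went both ways. Of 13 oligodendrocyte genes tested 4 were higher and 7 lower as deposited, and 4 and 5 after normalization. Ugt8a, an enzyme that makes the myelin lipid galactosylceramide, had signals of 3332 and 3474 in Tg-18mo-ACEI against 1946 and 2011 in Tg-12mo (0.78, SE 0.05, adjusted p = 2.1e-05). Fa2h, which hydroxylates myelin fatty acids, differed by 0.56, and Aspa and Opalin by -0.59 and -0.47, on both scalings in the same direction. Mbp, the myelin basic protein gene, differed by -0.80 as deposited and by 0.00 after normalization. Of 13 genes of oligodendrocyte precursors 6 were higher and 1 lower (median 0.24), and 5 and 1 after normalization (0.15). Gpr17 (0.53) and the transcription factor Sox10 (0.50) were higher and Olig1 lower (-0.38). Of 11 genes that mark pericytes and smooth muscle of vessels, 2 were higher and 4 lower on both scalings. Rgs5, a marker of pericytes, had 3667 and 3642 against 1844 and 2033 (0.92, SE 0.06, adjusted p = 2.7e-05), and Abcc9, a channel subunit of pericytes, was also higher (0.85). Vtn, which pericytes express in brain, was lower (-0.42, SE 0.08, adjusted p = 0.0033), as were Pdgfrb (-0.61) and the contractile genes Acta2 (-0.45) and Tpm2 (-0.66). Of 17 endothelial genes 3 were higher and 5 lower, and 3 and 4 after normalization, with Tek higher (0.86) and the glucose transporter Slc2a1 lower (-0.55).

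Of 39 chromatin regulators 22 were higher and 4 lower (median 0.29), and 17 and 4 after normalization (0.19), among them the remodellers Chd4 (0.69) and Arid1b (0.62). As deposited, 20.6% of all genes were higher, and 32.2% to 34.8% of probe sets with geometric mean signals of 500 to 2000. The part of the signal level in the chromatin counts was not tested. Rbfox2, a splicing regulator, had 2544 and 2434 against 999 and 1098 (1.25, SE 0.07, adjusted p = 1.2e-05) in a list of 42 splicing and RNA-binding genes with 9 higher and 10 lower as deposited (median 0.02) and 13 and 5 after normalization (0.12). Clock genes went both ways, with 5 of 17 higher and 4 lower (4 and 6 after normalization). Ciart (-1.07), Per1 (-0.87) and Dbp (-0.86) were lower and Nfil3 (0.98) and Hlf (0.66) higher. Dbp had 3492 and 3520 against 6423 and 6319, and 5613 and 6160 in Tg-18mo. The hour at which tissue was taken is not given in the sources used here. Of 15 interneuron genes tested, 3 were higher and 5 lower, and 1 and 2 after normalization. Over all genes 20.6% were higher and 21.1% lower as deposited. The interneuron peptide Vip had 1971 and 2063 against 3404 and 3186 (-0.71, SE 0.05), and the vesicular GABA transporter Slc32a1 2202 and 1975 against 1293 and 1434 (0.62, SE 0.07). Gad1, the brightest of the list, differed by -0.43 as deposited and by 0.02 after normalization. The imprinted noncoding RNAs Meg3 and Rian, which lie in the same cluster, differed by -0.87 and 0.80. Of the markers of blood cells, S100a8, a calcium-binding protein of neutrophils, had 123 and 161 against 41.1 and 1.64, reached a mean of 100 only in Tg-18mo-ACEI, and lost its call without either replicate of that group (4.30 and 3.91). Ighm, the immunoglobulin M heavy chain, differed by 0.64 on its brightest probe set and was lower by -2.08 on another.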
